A study of Mus musculus with 10 samples.

Results

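The 35 genes described here carry the unfolded protein response and the integrated stress response, the programmes by which a cell answers misfolded protein in its endoplasmic reticulum (ER) and limits its protein synthesis under stress. They were taken by gene symbol from a table of 49568 genes, and all 35 were present and tested. The cells were reactive cholangiocytes, the bile duct cells that multiply after liver injury, from 5 Smad4del mice and 5 Ctl mice. Smad4del mice are labelled as carrying floxed Smad4 alleles and, by the study's methods, carried Alb-Cre, a recombinase driven by the albumin promoter that acts in liver epithelium. Ctl mice are labelled Smad4wt/wt and described in the methods as lacking Alb-Cre, so that the cohorts differed in Cre as well as in Smad4. All 10 mice, of mixed genetic background, were fed 0.1% DDC, a compound that injures bile ducts, for 2 weeks, and no untreated mice are part of the comparison. EPCAM+/CD45-/TER119- cells were sorted from each digested liver and sequenced as 1 sample per mouse. The labels give no age, sex or litter of these mice, the methods say that control mice were littermates where this could be arranged without saying which mice shared a litter, and the labels also carry a cell line tag and a culture protocol that the methods do not.

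In unstressed cells the chaperone BiP, the product of Hspa5, holds the sensors IRE1, PERK and ATF6 inactive in the ER membrane. When unfolded protein draws BiP away, IRE1 splices Xbp1 mRNA, ATF6 is cut to release a transcription factor, and PERK phosphorylates eIF2alpha, which lowers translation in general but favours that of ATF4. XBP1 and ATF6 raise chaperones, disulfide isomerases and the machinery of ER-associated degradation (ERAD), while ATF4 raises amino acid and redox genes and can also be called up by other eIF2alpha kinases. Counts per gene show neither the splicing of Xbp1 nor the phosphorylation and cleavage steps, so the values below are mRNA levels only.

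The elements through which ATF6, XBP1 and ATF4 are known to act can be seen in the promoters of these genes, and the windows that held them are shown because several of the genes described below share them. RefSeq promoters (GRCm38.p6, 250 bases before to 50 after each start) were matched for 31 of the 35 genes, and each motif was searched on both strands. The ER stress response element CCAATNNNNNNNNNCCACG was found in 9 of the 31 genes (29.0%), against 0.119% of 32851 promoters. In the lines that follow its fixed letters are in capitals, and they appear as CGTGG and ATTGG where the element runs in reverse.
Hspa5: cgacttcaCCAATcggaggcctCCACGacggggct
Calr: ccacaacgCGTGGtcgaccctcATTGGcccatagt
Canx: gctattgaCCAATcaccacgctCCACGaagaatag
Creld2: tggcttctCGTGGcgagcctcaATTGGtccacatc
Dnajc3: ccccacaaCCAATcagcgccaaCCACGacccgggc
Hsp90b1, upstream copy: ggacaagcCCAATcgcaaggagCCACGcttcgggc
Hsp90b1, downstream copy: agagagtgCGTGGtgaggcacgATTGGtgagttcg
Pdia6: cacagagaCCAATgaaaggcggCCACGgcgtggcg
Syvn1: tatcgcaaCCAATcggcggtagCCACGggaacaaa
Derl3: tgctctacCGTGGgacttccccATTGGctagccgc
The Hspa5 window lies at chr2:34772017-34772051 on the plus strand with its element starting 65 bases before the start site, and the Calr window at chr8:84847067-84847101 on the minus strand with its element 162 bases before. The Syvn1 element began 44 bases before the start and the upstream Hsp90b1 copy 212 bases before, which were the nearest and the farthest.

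The shorter ER stress response element II, made of ATTGG, 1 free base and CCACG, was found in 2 of the 31 genes (6.45%), against 0.0365% of all promoters, and the unfolded protein response element TGACGTGG in 0 of 31, against 0.676%. The core of the C/EBP-ATF response element, TGATGNAA, was found in 4 of 31 genes (12.9%), against 3.97%. Their windows are shown because Herpud1 held both kinds and the other 3 genes with the core are ATF4 targets.
Dnajb11, element II: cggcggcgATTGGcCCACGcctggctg
Herpud1, element II: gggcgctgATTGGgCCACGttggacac
Herpud1, core: acggcgggTTgCATCAgcccgcac
Asns, core: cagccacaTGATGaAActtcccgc
Chac1, core: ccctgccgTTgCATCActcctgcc
Trib3, core: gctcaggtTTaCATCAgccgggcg
A match is a string of letters and not a measured binding site. Ddit4, whose mRNA differed between the cohorts as described below, held none of these letters in its window.

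Smad4 mRNA averaged 877 ± 144 normalized counts in Smad4del mice and 3389 ± 347 in Ctl mice (SD, n = 5 each; log2 fold change -1.96, adjusted p = 1.09e-05 in limma), without overlap. A normalized count is the authors' read count divided by 1 size factor per mouse, and depth was 16734672 to 19710560 reads on genes in Smad4del mice and 16249719 to 21277339 in Ctl mice. Fold changes are those of log2(normalized count + 1), Smad4del minus Ctl, tested with limma over 14870 genes and called at an adjusted p under 0.05. Cholangiocyte marker RNA was abundant in every mouse, the 12 genes summing to 545036 to 674737 normalized counts in Smad4del mice and 373999 to 543957 in Ctl mice. Most of this sum was Spp1 (mean 408510 over all mice). Of the 12, 3 were called higher in Smad4del mice (Krt19, Anxa13 and Tspan8) and 11 had log2 fold changes above 0. The low marker Sctr was called lower (73.0 to 155 in Smad4del mice and 194 to 429 in Ctl mice). Other cell types moved with the cohorts as well. Of 12 endothelial markers 11 were lower in Smad4del mice (summed level 6964 to 14920 in Smad4del mice and 19977 to 57503 in Ctl mice), and 8 of 10 cycling cell markers were higher (9150 to 10514 in Smad4del mice and 3919 to 7568 in Ctl mice). Of 10 stellate cell markers 2 were called lower by limma, 9 had log2 fold changes below 0 and 6 of these had an unadjusted p under 0.05 (20852 to 30318 in Smad4del mice and 30694 to 57409 in Ctl mice). All 12 macrophage markers had log2 fold changes below 0 and 0 were called by limma, with 10 at an unadjusted p under 0.05 (28382 to 108318 in Smad4del mice and 39063 to 300417 in Ctl mice). Of 14 immediate early and heat shock genes that tissue digestion can raise, 0 were called by limma, 3 had an unadjusted p under 0.05 and 13 had log2 fold changes below 0. Of 12 hepatocyte markers 0 were called by limma, 9 had log2 fold changes above 0 and 5 of these had an unadjusted p under 0.05 (34053 to 73050 in Smad4del mice and 25449 to 46868 in Ctl mice). In such bulk samples fewer cells of a type and less RNA per cell cannot be told apart.

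Per kb of exon, the level of these genes covered a wide range in both cohorts. Hspa5, which encodes BiP, led with a mean of 8779 normalized counts per kb in Smad4del mice and 8158 in Ctl mice. Pdia3, an isomerase of glycoproteins, followed with 7744 in Smad4del mice and 6992 in Ctl mice, ahead of P4hb, the archetypal disulfide isomerase, with 6838 in Smad4del mice and 6726 in Ctl mice. Some of the chaperones and isomerases thus stood at the upper end of the scale. The transcription factor gene Xbp1 stood there as well, at 3855 normalized counts per kb in Smad4del mice and 3300 in Ctl mice. The sensor genes were far lower, with 431 in Smad4del mice and 567 in Ctl mice for Eif2ak3, 122 in Smad4del mice and 164 in Ctl mice for Atf6, and 32.4 in Smad4del mice and 49.0 in Ctl mice for Ern1. Not every chaperone was high, as Hyou1 had 112 in Smad4del mice and 120 in Ctl mice, below Eif2ak3 and Atf6. Derl3, an ERAD gene typical of secretory cells, was the lowest at 20.1 in Smad4del mice and 11.6 in Ctl mice.

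**Figure D1:**
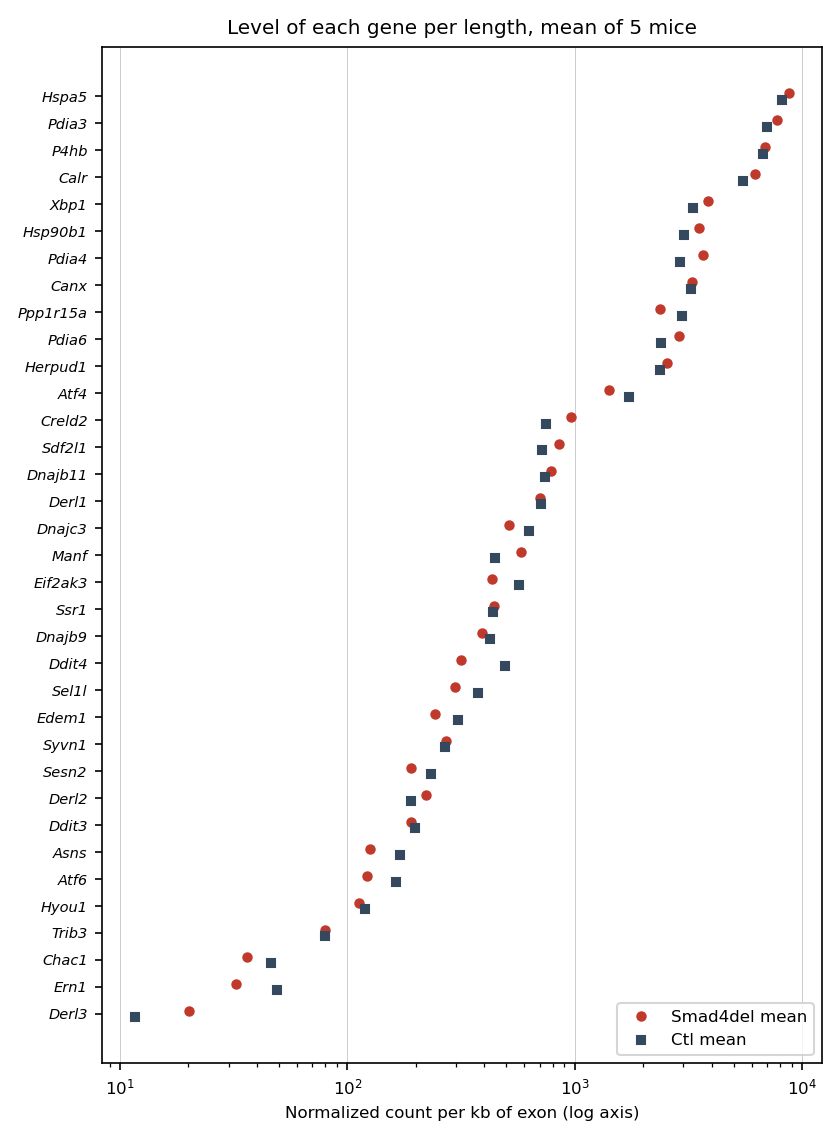
Mean normalized count per kb of exon (log axis) of each of the 35 genes in 5 Smad4del mice (circles) and 5 Ctl mice (squares), ordered by level. Hspa5 stands at the top, the sensor gene Eif2ak3 near the middle (rank 19), the sensor genes Atf6 and Ern1 in the lower part, and Derl3 at the bottom.

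Few of these genes were called between the cohorts, as was so among all genes tested. Of the 35 genes, 0 were called higher by limma, by DESeq2 or by edgeR, against 2.43% of all genes tested in limma. In limma 1 was called lower, Ddit4, against 4.69% of all genes, and DESeq2 also called Ern1 lower. Ddit4 was also the only gene of the group whose Smad4del mice all lay below the Ctl mice, against 4.59% of all genes, and for 0 of 35 did they all lie above, against 3.5%. Log2 fold changes were above 0 for 18 genes and below 0 for 17, with a median of 0.0031, against a median of -0.0050 over all genes. Unadjusted p-values were under 0.05 in limma for 12 of the 35 genes, 10 with lower and 2 with higher means in Smad4del mice, against 27.4% of all genes. The median standard error was 0.13 on the log2 scale, against 0.19 over all genes. The 34 genes that were not called are therefore not shown to be equal. Apart from the low gene Derl3, their 95% intervals lay between -1.40 and 0.85.

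**Figure D2:**
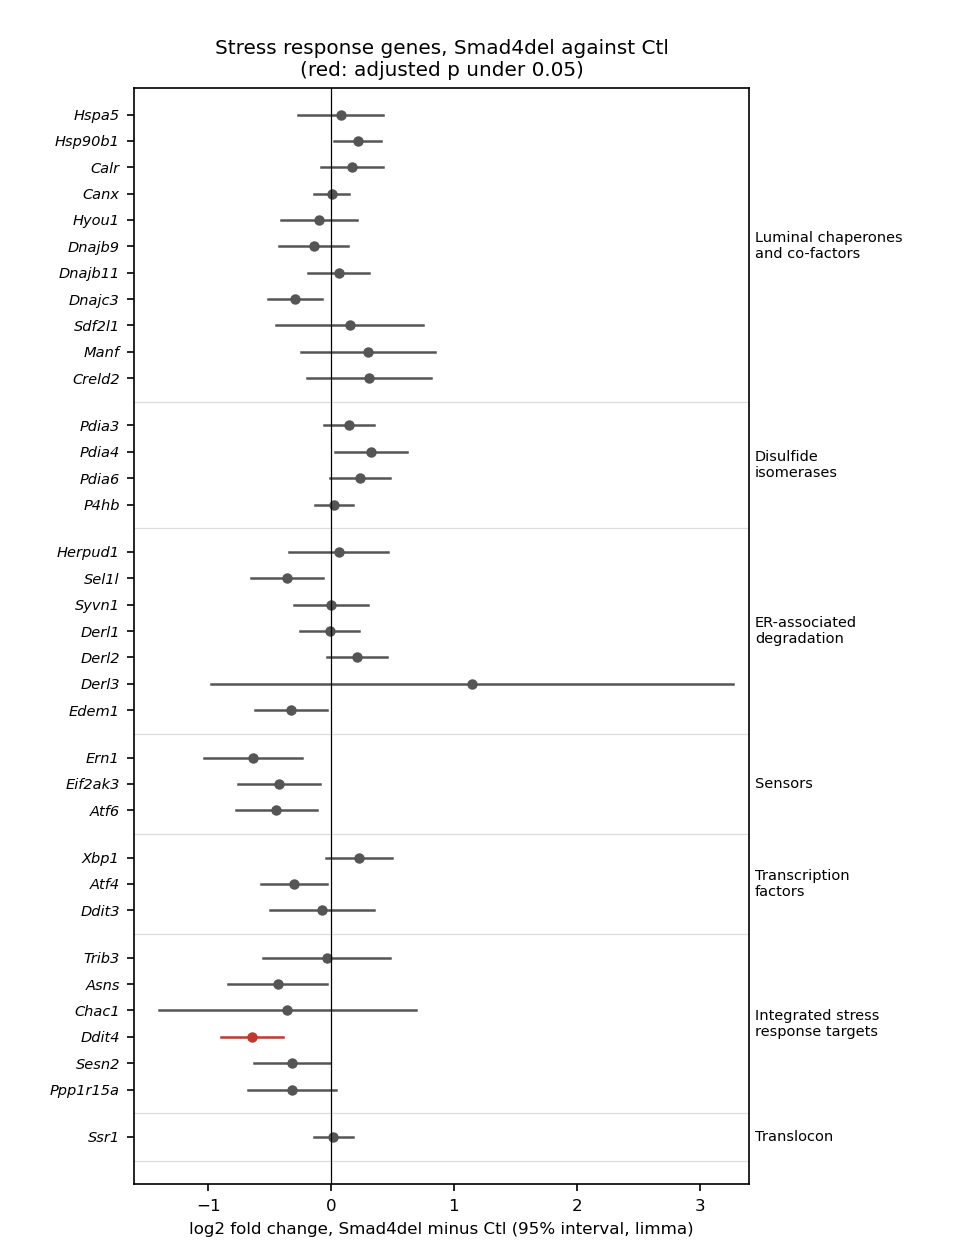
Log2 fold change, Smad4del minus Ctl, with its 95% interval in limma for each of the 35 genes by role, 5 mice per cohort. Ddit4 (red) is the only gene called, and the 3 sensors and 6 integrated stress response targets all have estimates below 0.

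Ddit4 encodes REDD1, an inhibitor of the growth kinase mTORC1 that ATF4, hypoxia and glucocorticoids can raise. It lies at chr10:59949669-59951834 on the minus strand (GRCm38), and no annotated gene shares its exons. Ddit4 had 485, 595, 532, 660 and 510 normalized counts in Smad4del mice A5216, A5217, A5218, A5447 and A5624, against 763, 798, 966, 905 and 910 in Ctl mice A5215, A5219, A5221, A5626 and A5628. The highest Smad4del mouse, A5447, lay below the lowest Ctl mouse, A5215. The means were 557 ± 70.8 in Smad4del mice and 868 ± 84.9 in Ctl mice (SD, n = 5 each), a fold of 0.640 and a log2 fold change of -0.64 (SE 0.12, 95% interval -0.90 to -0.39, adjusted p = 0.00872 in limma). It was called lower under all 20 alternatives, with adjusted p-values in limma, edgeR or DESeq2 from 2e-05 to 0.0311. Endothelial markers were lower and cycling cell markers higher in the same Smad4del mice, and their part in the result was not tested. Within the Ctl cohort the mouse with most endothelial and macrophage marker RNA, A5215, had 763 normalized counts of Ddit4. A5219, with least endothelial marker RNA, had 798, and A5628, with least macrophage marker RNA, had 910.

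The other targets of the integrated stress response were not called, although all 6 had estimates below 0 (median -0.34). Sesn2, a sensor of leucine that also restrains mTORC1, had 484, 734, 724, 758 and 595 normalized counts in Smad4del mice, against 973, 748, 713, 820 and 817 in Ctl mice, in the same order of mice as for Ddit4, which is kept below (log2 fold change -0.32, 95% interval -0.63 to -0.01, adjusted p = 0.175 in limma). Asns, asparagine synthetase, had 338, 278, 283, 368 and 456 in Smad4del mice, against 332, 579, 507, 417 and 494 in Ctl mice (-0.43, interval -0.84 to -0.03, adjusted p = 0.155 in limma). The cohorts overlapped for Sesn2, with A5221 the lowest Ctl mouse, and for Asns, with A5215 the lowest Ctl mouse and A5624 the highest Smad4del mouse. Ppp1r15a encodes GADD34, which directs the dephosphorylation of eIF2alpha and so ends the response. It had 6626, 6910, 5871, 9498 and 5858 in Smad4del mice, against 12008, 8499, 8648, 6861 and 7417 in Ctl mice (-0.32, interval -0.68 to 0.04, adjusted p = 0.233 in limma). A5447 exceeded 4 of the Ctl mice, and of the other Smad4del mice only A5217 exceeded any. Trib3, a pseudokinase that is induced by ATF4 and CHOP, had 104, 216, 223, 170 and 137 in Smad4del mice, against 144, 188, 209, 154 and 151 in Ctl mice (-0.03, interval -0.55 to 0.48, adjusted p = 0.944 in limma). Chac1, which breaks down glutathione, had 60.1, 27.9, 32.5, 113 and 61.6 in Smad4del mice, against 26.1, 88.3, 118, 53.7 and 91.0 in Ctl mice (-0.36, interval -1.40 to 0.69, adjusted p = 0.663 in limma). The cohorts covered much the same range for Chac1, the Smad4del mice spread more widely than the Ctl mice for Trib3, and the direction for Trib3 changed with the scaling and the test.

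The 3 sensor genes all had estimates below 0 and an unadjusted p under 0.05 in limma, and 0 were called after adjustment. Ern1, which encodes IRE1alpha, had 221, 190, 256, 384 and 272 normalized counts in Smad4del mice, against 444, 403, 359, 378 and 417 in Ctl mice. The means were 264 ± 74.1 in Smad4del mice and 400 ± 33.2 in Ctl mice (SD, n = 5 each), with a log2 fold change of -0.63 (SE 0.18, interval -1.03 to -0.24) that narrowly missed the threshold (adjusted p = 0.0554 in limma). It was called by DESeq2 on the recovered reads (-0.60, adjusted p = 0.0211) and with the range of mouse numbers as a term (adjusted p = 0.0480 in limma). The cohorts overlapped only through A5447, which lay above A5221 and A5626. Eif2ak3, which encodes PERK, had 2271, 2098, 2161, 3728 and 2718 in Smad4del mice, against 3078, 3363, 3974, 2966 and 3712 in Ctl mice (-0.42, interval -0.76 to -0.09, adjusted p = 0.106 in limma). Atf6 had 1141, 1114, 751, 1391 and 1242 in Smad4del mice, against 1649, 1291, 1459, 1494 and 1659 in Ctl mice (-0.44, interval -0.77 to -0.12, adjusted p = 0.0894 in limma). In both, 4 of the 5 Smad4del mice lay below every Ctl mouse, and A5447 alone entered the Ctl range. Of the exon bases of Eif2ak3, 8.05% are shared with a model on the opposite strand. Exons of Ern1 and Atf6 are shared with no other gene.

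Among the transcription factors the estimates went in either direction. Atf4 had 3411, 3205, 2897, 4415 and 2767 normalized counts in Smad4del mice, against 4338, 3776, 4580, 3735 and 3882 in Ctl mice (-0.30, interval -0.57 to -0.03, adjusted p = 0.143 in limma), again with only A5447 within the Ctl range. Xbp1 had 10641, 13828, 14940, 11692 and 11500 in Smad4del mice, against 8866, 12961, 11392, 9480 and 10902 in Ctl mice (0.23, interval -0.04 to 0.49, adjusted p = 0.258 in limma). The overlap was broad for Xbp1, and A5217 and A5218 held its highest values. Ddit3, which encodes the death-linked factor CHOP, had 307, 336, 448, 263 and 269 in Smad4del mice, against 358, 357, 401, 230 and 361 in Ctl mice (-0.07, interval -0.50 to 0.35, adjusted p = 0.836 in limma). Ddit3 shares 4.73% of its exon bases, mostly with Mars on the opposite strand.

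Mouse A5447 held the highest Smad4del value of Ern1, Eif2ak3, Atf6, Atf4, Ppp1r15a, Chac1 and Ddit4. Its sensor genes summed to 5503 normalized counts, against 3167 to 4233 in the other Smad4del mice and 4838 to 5792 in Ctl mice. Without A5447, 5 of the 35 genes were called lower instead of 1, namely Ddit4, Ern1 (adjusted p = 0.0154), Eif2ak3 (0.0164), Atf4 (0.0282) and Atf6 (0.0497), all in limma. With all mice, 4.69% of all genes were called lower, and this share also changed when a mouse was left out. The share over all genes without A5447 is not given beside these 5 calls. The calls are therefore not shown to be particular to these genes. A5447 was singled out after its values for these genes were seen, which by itself favours more calls without it. A5447 also had the highest summed level of the immediate early and heat shock genes, at 344472 normalized counts, against 219956 to 272624 in the other Smad4del mice and 258231 to 343591 in Ctl mice, and the part of these genes in the result was not tested.

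**Figure D3:**
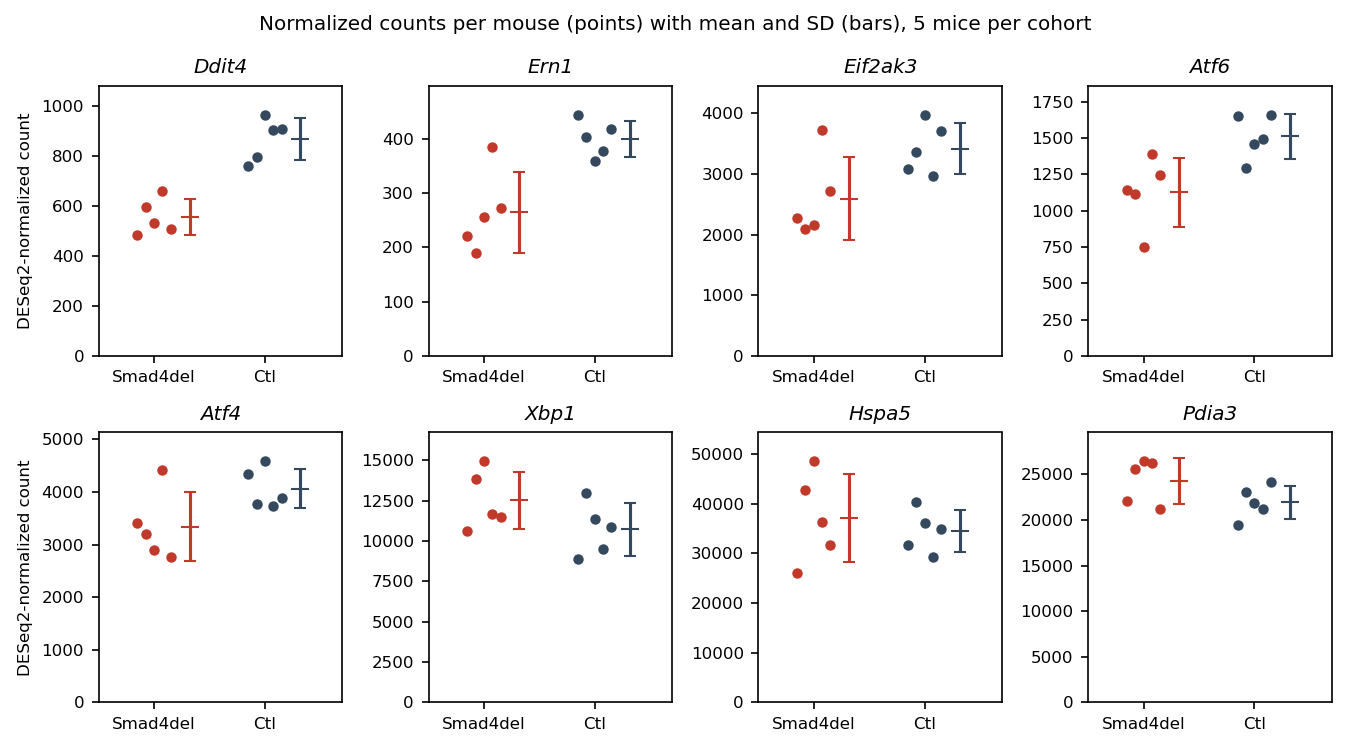
Normalized counts of 8 genes in each of 5 Smad4del mice (left in each panel) and 5 Ctl mice (right), with mean and SD beside the points. Ddit4 alone shows no overlap, and in Ern1, Eif2ak3, Atf6 and Atf4 the highest Smad4del point is mouse A5447.

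The luminal chaperones and their partners, 11 genes, included 0 called genes (2 at an unadjusted p under 0.05 in limma) and had a median log2 fold change of 0.08. Hspa5 had 26147, 42807, 48545, 36382 and 31749 normalized counts in Smad4del mice, against 31726, 40330, 36215, 29312 and 34929 in Ctl mice (0.08, interval -0.27 to 0.43, adjusted p = 0.776 in limma). Smad4del mice thus held both the lowest and the highest value. Calr, calreticulin, had 17135, 20000, 21214, 16891 and 14101 in Smad4del mice, against 13973, 18303, 15794, 14901 and 16033 in Ctl mice (0.17, interval -0.09 to 0.42, adjusted p = 0.368 in limma). Its membrane-bound relative Canx, calnexin, had 14917, 14463, 15727, 15874 and 15635 in Smad4del mice, against 15174, 15848, 15012, 14560 and 15760 in Ctl mice (0.0048, interval -0.14 to 0.15, adjusted p = 0.973 in limma). Canx varied little from mouse to mouse, whereas Calr was highest in A5217 and A5218. Hsp90b1, the ER member of the HSP90 family, had an estimate of 0.22 with an interval of 0.03 to 0.41 (adjusted p = 0.134 in limma), and 15.7% of its exon bases are shared with other gene models. Dnajc3, which encodes the PERK inhibitor p58IPK, had -0.29 with an interval of -0.51 to -0.07 (adjusted p = 0.0958 in limma). The other 6 genes (Hyou1, Dnajb9, Dnajb11, Sdf2l1, Manf and Creld2) ranged from -0.14 for Dnajb9 to 0.31 for Creld2.

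All 4 disulfide isomerases, which form and rearrange disulfide bonds in the ER, had estimates above 0 (median 0.19), and 0 were called (1 at an unadjusted p under 0.05 in limma). Pdia3 had 22080, 25556, 26431, 26304 and 21167 normalized counts in Smad4del mice, against 19469, 23073, 21872, 21160 and 24161 in Ctl mice (0.15, interval -0.06 to 0.35, adjusted p = 0.336 in limma). P4hb had 18500, 20994, 20283, 18957 and 19085 in Smad4del mice, against 18408, 19179, 20150, 18486 and 19998 in Ctl mice (0.02, interval -0.13 to 0.18, adjusted p = 0.861 in limma). The cohorts overlapped over most of their range in P4hb, and 3 Smad4del mice exceeded every Ctl mouse in Pdia3. Pdia6 had 9016, 11181, 13508, 10749 and 9093 in Smad4del mice, against 8493, 10022, 8933, 8299 and 9249 in Ctl mice (0.24, interval -0.01 to 0.48, adjusted p = 0.194 in limma). Pdia4 had the largest estimate of the 4, at 0.32 (interval 0.03 to 0.61, adjusted p = 0.146 in limma).

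The 7 ERAD genes, which recognise misfolded proteins and carry them out of the ER for destruction, included 0 called genes (2 at an unadjusted p under 0.05 in limma) and had a median of 0.0031. Herpud1, which organises the ERAD complex, had 4269, 7229, 8507, 5360 and 4411 normalized counts in Smad4del mice, against 5220.9, 5623, 6387, 4489 and 5919 in Ctl mice (0.06, interval -0.34 to 0.47, adjusted p = 0.855 in limma). Sel1l, the partner of the ubiquitin ligase HRD1, had 1845, 2242, 2879, 2950 and 2813 in Smad4del mice, against 3659, 2858, 2957, 3252 and 3379 in Ctl mice (-0.36, interval -0.65 to -0.06, adjusted p = 0.115 in limma). Herpud1 spread more widely in Smad4del mice than in Ctl mice, and Sel1l had every Smad4del mouse but A5218 and A5447 below the Ctl mice. Derl1, a channel component, had 2585, 2215, 2550, 2362 and 2025 in Smad4del mice, against 2871, 2298, 2378, 2393 and 1936 in Ctl mice (-0.01, interval -0.25 to 0.23, adjusted p = 0.962 in limma), and its direction changed with the scaling. Edem1, a lectin that marks glycoproteins for ERAD, had -0.33 with an interval of -0.62 to -0.03 (adjusted p = 0.142 in limma). Syvn1, which encodes HRD1, and Derl2 had 0.0031 and 0.21. Derl3 was low, with 8.29 to 82.2 normalized counts in Smad4del mice, against 0 to 41.6 in Ctl mice, and its interval of -0.98 to 3.27 leaves its direction unknown. The 0 in A5215 allows up to 3.26 normalized counts, the value of 3 reads, which covers counting error only. Ssr1, a translocon-associated protein, had 4401 to 4964 in Smad4del mice and 4205 to 5033 in Ctl mice (0.02, interval -0.14 to 0.18, adjusted p = 0.894 in limma).

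Folding genes varied between mice within the Smad4del cohort. Smad4del mice A5217 and A5218 held the 2 highest of all 10 values for 14 of the 35 genes, against 7.8% of all genes tested. Of these 14, 12 were among the 22 luminal, isomerase and ERAD genes and 0 were sensors. A5218 alone was the highest mouse for 18 of 35 genes, against 13.1% of all genes tested. Both mice were named after the values of these genes were seen, and that choice by itself favours counts above the shares over all genes. The following members were also chosen after their values were seen. Manf, a secreted stress factor, had 1526, 2684, 3227, 1262 and 1470 normalized counts in Smad4del mice, against 1231, 2040, 1700, 1363 and 1495 in Ctl mice. Creld2, a further secreted ER protein, had 957, 1565, 2105, 978 and 953 in Smad4del mice, against 851, 1392, 1059, 866 and 934 in Ctl mice. In both, A5218 and A5217 were followed by the Ctl mouse A5219, and the other 7 mice had at most 1700 for Manf and 1059 for Creld2. The summed level of the 11 luminal genes was 116840 in A5218, against 81036 to 103721 in the other Smad4del mice and 79680 to 98821 in Ctl mice, with A5219 the highest of these.

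**Figure D4:**
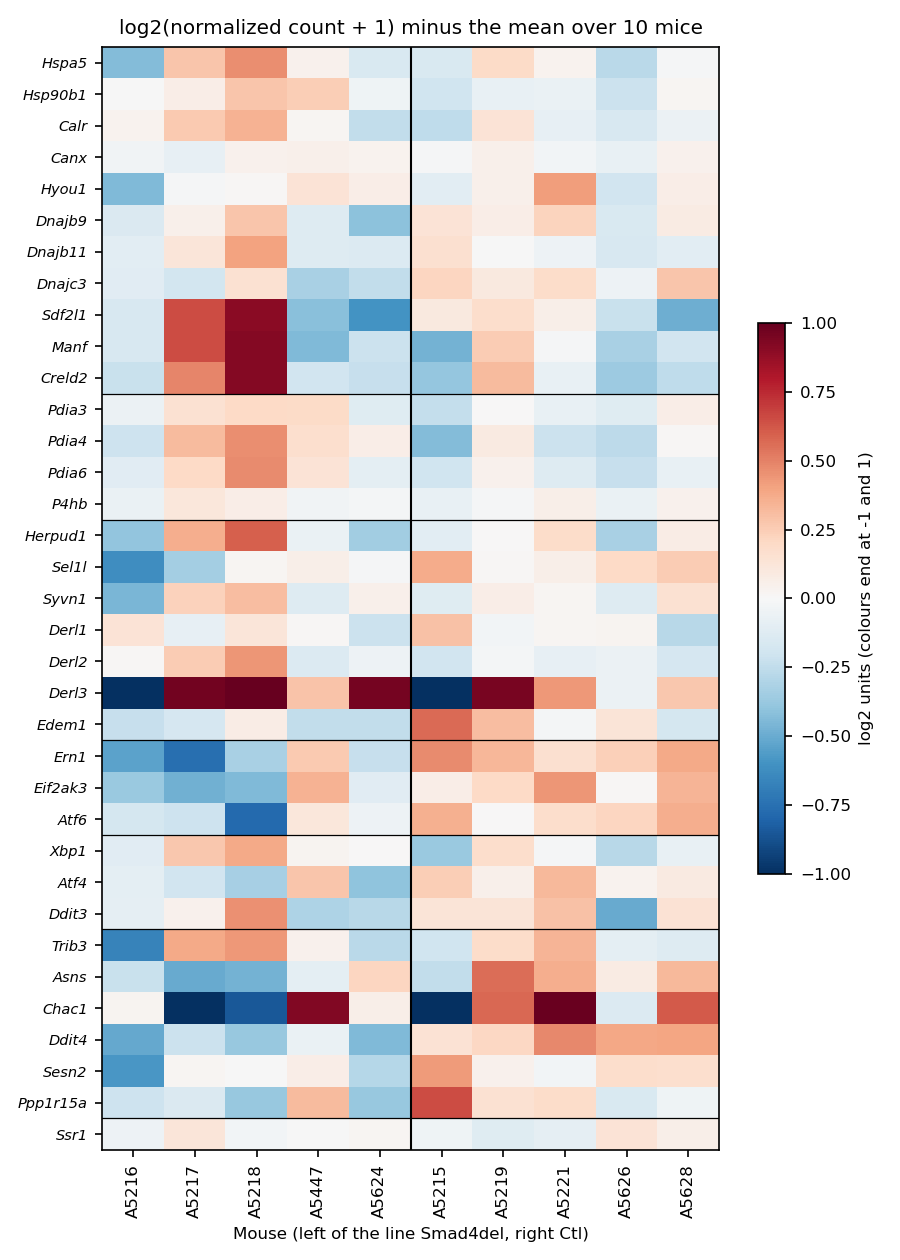
Log2(normalized count + 1) of each of the 35 genes minus its mean over the 10 mice, with 5 Smad4del mice left of the line and 5 Ctl mice right of it. Of the 22 luminal, isomerase and ERAD genes, 12 have their 2 highest values in A5217 and A5218. Ern1, Eif2ak3 and Atf6 are blue in 4 of 5 Smad4del mice and Ddit4 in all 5.

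Plasma cells, which secrete antibody and keep a large ER, were represented unequally among these mice. The 10 plasma and B cell markers summed to 12085, 12214, 44426, 32.2 and 47.0 normalized counts in Smad4del mice, against 16726, 44256, 2870, 5012 and 21.1 in Ctl mice. The 2 mice far above the others, A5218 and A5219, were the mice with the highest luminal sum of their cohorts. A5217, second in the luminal sum, had a plasma cell sum like that of A5216. A5215, next in the plasma cell sum after A5218 and A5219, had a luminal sum of 83301. A5447, A5624 and A5628, with the lowest plasma cell sums, had luminal sums of 94020, 83569 and 90825. Jchain, which joins antibody units, had 1523, 1595, 5292, 0 and 0 in Smad4del mice, against 1615, 6050, 237, 516 and 0 in Ctl mice, and 0 of the 7 markers tested were called between cohorts by limma, also without adjustment. The sort selected EPCAM+ cells and removed those with CD45, which leukocytes carry, and the part of plasma cell RNA in the levels of the folding genes was not tested. Without A5218 the estimates became -0.02 for Hspa5, -0.05 for Sdf2l1, -0.08 for Herpud1, 0.11 for Manf and 0.12 for Creld2.

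The genes with an ER stress response element of either form, whose sequences are given above, were 11 of the 31 matched. Of these 11, 10 had estimates above 0 (median log2 fold change 0.08), against 49.4% of all genes tested. A5217 and A5218 were the highest mice for 7 of the 11, against 7.8% of all genes, and this pair was named after the values were seen. Of the 20 matched genes with neither form, 7 had estimates above 0 and 6 had that pair as their highest mice (median -0.22). All 11 genes with an element were luminal, isomerase or ERAD genes. The 20 also include the sensors Ern1 and Eif2ak3, the transcription factors, the integrated stress response targets and Ssr1. Element and role therefore cannot be told apart in these counts. The lone gene with the element and an estimate below 0 was Dnajc3. The 11 include no called gene, and the estimates of Canx (0.0048) and Syvn1 (0.0031) were close to 0. Those of Hspa5, Canx, Dnajb11, Herpud1 and Syvn1 changed sign under at least 1 alternative. The 3 targets with the C/EBP-ATF core, Asns, Chac1 and Trib3, had the estimates of -0.43, -0.36 and -0.03 given above.

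The wider pathways were surveyed with 128 further genes, of which 126 were tested. Of these, 2 were higher and 5 were lower (median log2 fold change 0.02), to be read against the 2.43% and 4.69% of all genes. Leaving out each mouse in turn gave 1 to 5 higher and 1 to 5 lower genes, with 1 of each left without A5217, without A5221 and by edgeR without A5217. Gpt2 and Nupr1 were called in limma whichever mouse was left out. The other 5 calls were each lost when some of the mice were left out. Slc7a5 was not called without A5217 or A5221, and Vars without A5217, A5218, A5624, A5221 or A5628. Slc3a2 was not called without A5217, A5218, A5624, A5221 or A5626. Creb3l2 was still called only without A5215 or A5626, and Fkbp14 only without A5219. A fit on fewer mice has less power, and the number of calls over all genes also changed with the mouse left out. A lost call therefore does not show that a result depends on that mouse.

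Most calls fell among 27 tested targets of ATF4 and CHOP other than those above, with 1 higher and 3 lower (median -0.05). Nupr1, a small stress-induced chromatin protein, had 681, 488, 834, 1192 and 611 normalized counts in Smad4del mice, against 1501, 1981, 2132, 1393 and 1641 in Ctl mice, without overlap (-1.23, interval -1.70 to -0.76, adjusted p = 0.00749 in limma). Slc7a5 and Slc3a2 encode the light and heavy chains of an amino acid exchanger. Slc7a5 had 359, 328, 235, 550 and 332 in Smad4del mice, against 813, 550, 726, 732 and 563 in Ctl mice (-0.94, interval -1.39 to -0.49, adjusted p = 0.0213 in limma). Slc3a2 had 3619, 2346, 2278, 2766 and 2534 in Smad4del mice, against 9029, 3817, 5362, 4711 and 3520 in Ctl mice (-0.90, interval -1.40 to -0.40, adjusted p = 0.0369 in limma). Both chains were thus lower in Smad4del mice with a slight overlap, and Slc3a2 was highest in A5215, the mouse with most macrophage and endothelial marker RNA, whose part was not tested. The higher gene, named because it was the only one, was Gpt2, a mitochondrial alanine aminotransferase, with 8528, 9734, 11642, 9762 and 10151 in Smad4del mice, against 5025, 7297, 6097, 6037 and 7369 in Ctl mice, without overlap (0.65, interval 0.40 to 0.91, adjusted p = 0.00845 in limma). Nupr1, Slc7a5 and Slc3a2 therefore had the direction of Ddit4, and Gpt2 the opposite one.

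Of 20 aminoacyl-tRNA synthetases, 1 was higher and 0 were lower (median 0.05). Vars, which charges valine tRNA, had 3414, 4265, 5484, 4492 and 5521 normalized counts in Smad4del mice, against 2737, 3165, 1452, 3294 and 1923 in Ctl mice (0.93, interval 0.44 to 1.41, adjusted p = 0.0299 in limma), without overlap but with a wide spread in Ctl mice. Of 8 further sensors and factors tested, 1 was lower. Creb3l2, an ER-bound transcription factor related to ATF6, had 1040, 1436, 1373, 1364 and 1348 in Smad4del mice, against 1586, 1846, 2243, 1529 and 2391 in Ctl mice, without overlap (-0.53, interval -0.84 to -0.23, adjusted p = 0.0438 in limma). Of 18 further folding genes, 1 was lower. Fkbp14, a prolyl isomerase that acts on collagen, had 128, 184, 241, 189 and 228 in Smad4del mice, against 387, 237, 455, 276 and 390 in Ctl mice (-0.84, interval -1.34 to -0.34, adjusted p = 0.0473 in limma), and the summed stellate and fibroblast markers were 20852 to 30318 in Smad4del mice and 30694 to 57409 in Ctl mice. Their part in the Fkbp14 result was not tested.

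The remaining lists held 0 called genes in limma and in edgeR. Among 22 translocon, signal peptidase and oligosaccharyltransferase genes, 17 had estimates above 0 (median 0.11), against 49.4% of all genes tested. An unadjusted p under 0.05 in limma was found for 6 of the 22, against 27.4% of all genes. DESeq2, which called more genes than limma over all genes as well, called 3 of the 22 higher (Rpn1, Sec61b and Stt3b). Those with the highest means, Stt3b and Rpn1 of the oligosaccharyltransferase, had 0.41 (interval 0.15 to 0.68, adjusted p = 0.0596 in limma) and 0.21 (interval 0.06 to 0.37, adjusted p = 0.0859 in limma). Among 17 further ERAD genes (median -0.07, 2 at an unadjusted p under 0.05 in limma, and Rnf5 called higher by DESeq2), Vcp, the ATPase that extracts ERAD substrates, had 0.06. Among 14 genes of the eIF2alpha kinases, eIF2 and eIF2B (median 0.01, 2 at an unadjusted p under 0.05 in limma), Eif2s1, which encodes eIF2alpha, had 0.13 and Ppp1r15b, the constitutive partner of its phosphatase, had -0.12. Eif2ak1, the heme-regulated eIF2alpha kinase, was chosen after its values were seen, as the gene of this list without overlap. It had 1276, 1221, 1305, 1424 and 1191 normalized counts in Smad4del mice, against 1588, 1536, 1433, 1740 and 1576 in Ctl mice (-0.29, interval -0.48 to -0.11, adjusted p = 0.0544 in limma), and DESeq2 called it lower.

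**Figure D5:**
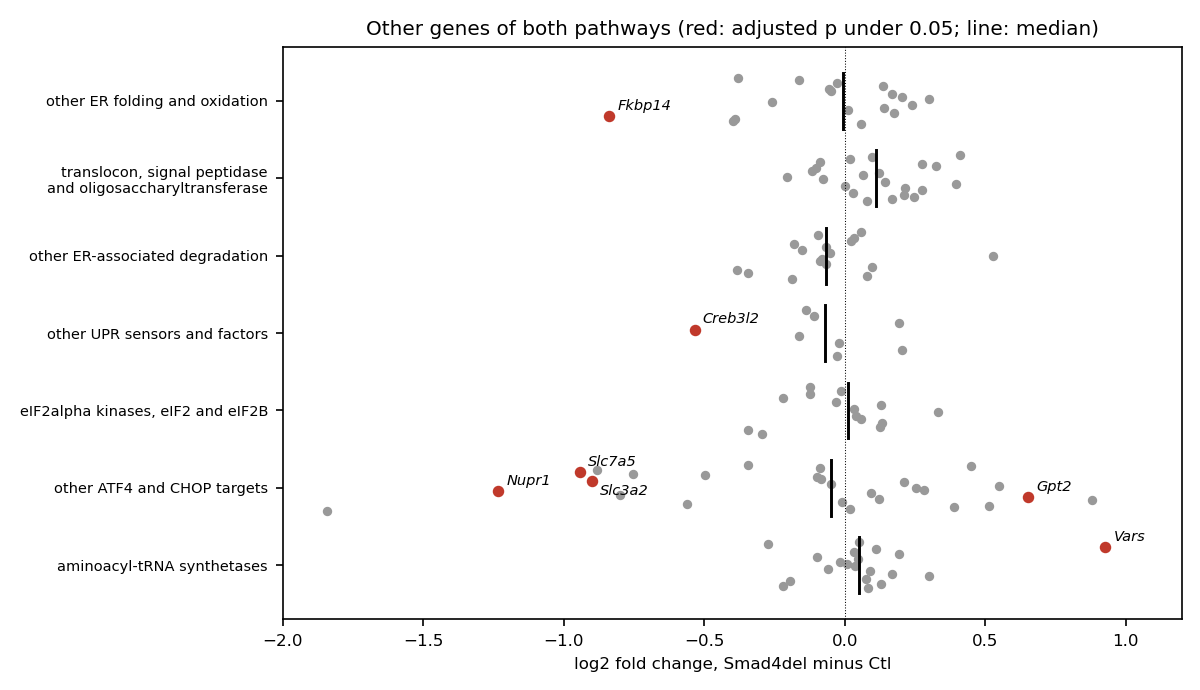
Log2 fold change, Smad4del minus Ctl, of 126 further genes of both pathways by list, 5 mice per cohort, with the median of each list as a vertical line. The 7 called genes (red, named) are Vars and Gpt2 above 0 and Nupr1, Slc7a5, Slc3a2, Fkbp14 and Creb3l2 below 0.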

How the data were processed

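SMART-Seq v4 libraries were made from RNA of 10 mice, 5 per cohort. Reads were trimmed by the authors (Trimmomatic 0.36), aligned to GRCm38.p5, assigned to GENCODE M12 genes (featureCounts) and scaled with DESeq2 (1.14.1, under R 3.3.2). A further build, mm9, appears in the submitters' processing notes. Each deposited signal value is a gene's read count over the size factor of its mouse, uncorrected for length. Strand was not kept by the kit, so antisense overlaps cannot be separated, and the sources used here do not say whether the values include multi-mapping reads. All values were whole multiples of 1 read (100%, relative tolerance 1e-06). In A5217 that multiple is close to 1, so whole steps alone do not tell reads from rounded values there.

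Genes with a mean of at least 10 were tested with limma 3.58.1 (R 4.3.3) on log2(normalized count + 1), with the cohort as the only term, a trended prior and Benjamini-Hochberg adjustment at 0.05. Intervals are at 95%. No pair of mice agreed within counting error (chi-square over its degrees of freedom 25.8 to 209, 45 pairs). The tests were first tested on simulated data.

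The members and all lists were chosen with earlier results of these data known. Values in every mouse are given for called genes, sensors, transcription factors, integrated stress response targets and the 3 genes of highest mean in the other roles. In each wider list up to 4 called genes of smallest p in the more frequent direction, or the 2 of highest mean where none was called, are named. Of these, 1 gene is not reported here. Positions and exon lengths are from GENCODE M21 on GRCm38, and promoters from RefSeq on GRCm38.p6. Of 32 promoters, 26 began their transcribed part with 25 bases found in a GENCODE transcript of the gene. Alternatives were pseudocounts of 0.5 and 10, no minimum and a minimum of 50, median scaling, the mouse number range as a term, count tests on the recovered reads (DESeq2 1.42.0, edgeR 4.0.16), and leaving out each mouse. The count tests without A5217 were chosen after seeing the data.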

Additional observations from a re-analysis of the deposited data

Results flagged for a closer look

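Of 70 sets of 5 mice (35 genes in 2 cohorts), 3 held a mouse far from the rest, judged by the gap to its nearest neighbour over the whole range, and chance alone flags about 1 in 20 sets. Edem1 in Smad4del mouse A5218 had 1836 normalized counts, against 1467 to 1551 in the other Smad4del mice (gap over range 0.771). Ddit3 in Ctl mouse A5626 had 230 normalized counts, against 357 to 401 in the other Ctl mice (0.742). Ppp1r15a in Smad4del mouse A5447 had 9498 normalized counts, against 5858 to 6910 in the other Smad4del mice (0.711).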

How the results depend on the processing

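Ddit4 was lower under all 20 alternatives (log2 fold change -0.71 to -0.58), 30 of the 35 genes were called under none, and 0 were called higher under any. The count of lower genes was 2 (Ddit4 and Ern1) with the mouse number range as a term and with DESeq2, and 1 to 5 when each mouse was left out, with 5 without A5447. The sign held under every alternative for 24 genes. It turned for P4hb (-0.0037 by DESeq2 without A5217), Syvn1 (-0.033 by DESeq2 and -0.025 by edgeR without A5217), Ssr1 (-0.012 by DESeq2 and -0.0040 by edgeR without A5217), Derl1 (0.054 with median scaling, and without A5217 0.0027 by DESeq2 and 0.011 by edgeR) and Trib3 (0.030 with median scaling, 0.0055 by DESeq2 and 0.015 by edgeR). With 1 mouse left out, the sign also turned within the ranges of -0.024 to 0.20 for Hspa5, -0.012 to 0.025 for Canx, -0.15 to 0.0026 for Hyou1, -0.030 to 0.11 for Dnajb11, -0.053 to 0.32 for Sdf2l1, -0.0027 to 0.043 for P4hb, -0.079 to 0.17 for Herpud1, -0.074 to 0.12 for Syvn1, -0.082 to 0.060 for Derl1, -0.15 to 0.13 for Trib3 and -0.0085 to 0.057 for Ssr1. The cause was not tested. Over all genes, against 362 higher and 697 lower, DESeq2 gave 930 and 1375, edgeR 313 and 598, edgeR without A5217 89 and 265, no minimum 209 and 512, median scaling 626 and 639, and leaving out a mouse 105 to 563 and 329 to 852. In the wider lists, against 2 and 5, the counts were 9 and 8 by DESeq2, 7 and 3 with median scaling, 2 and 2 with no minimum, 2 and 3 by edgeR, and 1 and 1 by edgeR without A5217. Derl3 and Chac1 had few reads and the widest intervals. No paired analysis was possible because the labels tie no Smad4del mouse to a Ctl mouse by number or litter.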
